A study of Mus musculus with 20 samples.

Results

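The genes described here are 10 genes of apolipoproteins and of the assembly of very-low-density lipoprotein (VLDL): Apoa1, Apoa2, Apoa4, Apoa5, Apoc3, Apom, Apoh, Apob, Mttp and Tm6sf2. They were taken by name, as 10 of the 55401 gene IDs of a count table from mouse liver. RNA was sequenced from livers of C57BL/6 mice labelled with the genotype WT, of which 10 libraries (chow 1 to 10) came from a standard chow and 10 (HFD 1 to 10) from a high-fat diet fed for 12 weeks, with 60% fat, 20% carbohydrate and 20% protein. The comparison is that between the diets, on total RNA, and neither age nor sex is given. The design text names 3 high-fat diet groups, but the 10 HFD libraries share 1 set of labels and form 1 group here. Whether each library comes from its own mouse is not stated, and the p-values below therefore measure the spread between these libraries, which may in part be technical.

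VLDL is built in the endoplasmic reticulum of the hepatocyte, where microsomal triglyceride transfer protein loads lipid onto the nascent apolipoprotein B chain and TM6SF2 takes part in adding bulk lipid. Apolipoproteins A-I, A-II and M are proteins of high-density lipoprotein (HDL), while A-IV, A-V and C-III exchange between particles and affect how fast plasma triglyceride is cleared. In mice the intestine is a major source of apolipoprotein A-IV, and the liver makes it as well.

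The chow libraries held 34727227 to 49065587 counts each, the HFD libraries 20111896 to 90033879. HFD 1 and HFD 2 stood apart, since mitochondrial counts reached up to 94.4% of the library against 1.34% to 3.10% in the other 18, leaving 1906287 and 2650330 counts on nuclear protein-coding genes against at least 25369355 elsewhere. Nuclear rRNA took 20.4% of chow 9 and 13.3% of HFD 1. Hepatocyte markers, 7 of 8 of which were matched, summed to between 72639 and 115914 CPM (counts scaled to a library size of 1000000, with TMM factors) in chow, to 20160 and 18017 CPM in HFD 1 and HFD 2, and to 61709 to 107006 CPM over HFD 3 to HFD 10. The sum hides markers that differ. Ttr was 985 to 4342 CPM in HFD against at least 5725 CPM in chow, and Alb lay below all chow libraries in 5 of 10. Of the 7 markers 2 were called lower and 0 higher in edgeR, and 2 each way without HFD 1 and HFD 2. Apoe, which encodes apolipoprotein E and is no member, had a median of 14273 CPM in chow and 74.3 CPM in HFD, where it lay below every chow library in 10 of 10; in HFD 6 it was 10124 CPM and 15.7 to 819 CPM in its 9 companions. The genotype label WT is the same for all 20 libraries, and it is those 9, far below the chow range of 12739 to 17328 CPM, that stand against it. Differences between the groups labelled chow and HFD therefore cannot be told apart from whatever else came with the low Apoe, and "diet" below means only the labelled group. HFD 6 differs from the rest of its group in this, and the changes of the 10 genes are given with and without HFD 1, HFD 2 and HFD 6. In whole liver, fewer hepatocytes and less RNA per hepatocyte cannot be told apart.

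Apoa4 stood against the rest of the family: it was the only one of the 10 genes called higher on the high-fat diet, and Apoa2, Apoa5 and Mttp were called lower. For all 14542 genes tested, 20.0% were called, 13.0% higher and 7.05% lower, at an adjusted p under 0.05 in the edgeR quasi-likelihood test. The median log2 change was -0.63 over the 10 genes and 0.02 over all genes tested. Without HFD 1 and HFD 2 the medians were -0.39 and 0.03; Apoa4 was again called higher and Apoa2, Apoa5, Apoh and Mttp lower, with 17.9% of 14842 genes called higher and 10.4% lower.

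Apoa1, Apoc3, Apoa4 and Apoa5 sit in 1 cluster on chromosome 9 (mm10, GENCODE M21 gene bounds). Apoa1 lies at chr9:46228580-46230466 on the plus strand, Apoc3 at chr9:46232933-46235636 on the minus strand, Apoa4 at chr9:46240696-46243459 on the plus strand and Apoa5 at chr9:46268633-46271919 on the plus strand. The stretches upstream of Apoa1, Apoa4 and Apoa5 are shown because these neighbours differed in response, and that of Apoa2 because it was called lower in every refit that left out 1 library. They are RefSeq promoter entries of GRCm38.p6, 5′ to 3′ on the gene's plus strand, covering chr9:46228380-46228579 (Apoa1), chr9:46240594-46240695 (Apoa4), chr9:46268358-46268607 (Apoa5) and chr1:171224804-171225053 (Apoa2). Each holds the 250 bases before the RefSeq start, cut where an exon of the gene begins in GENCODE, which is 50 bases before the RefSeq start for Apoa1 and 148 before it for Apoa4. Capitals mark letters that match a motif searched.
Apoa1: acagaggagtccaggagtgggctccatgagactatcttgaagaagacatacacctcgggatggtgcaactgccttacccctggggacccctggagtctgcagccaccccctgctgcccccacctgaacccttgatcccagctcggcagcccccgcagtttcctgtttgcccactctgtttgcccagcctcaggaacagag
Apoa4: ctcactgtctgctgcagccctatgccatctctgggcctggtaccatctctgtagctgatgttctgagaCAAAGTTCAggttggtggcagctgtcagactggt
Apoa5: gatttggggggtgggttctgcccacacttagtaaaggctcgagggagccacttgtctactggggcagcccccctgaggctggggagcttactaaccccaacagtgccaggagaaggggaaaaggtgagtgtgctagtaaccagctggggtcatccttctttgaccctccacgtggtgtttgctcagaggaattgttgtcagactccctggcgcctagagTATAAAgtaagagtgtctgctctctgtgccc
Apoa2: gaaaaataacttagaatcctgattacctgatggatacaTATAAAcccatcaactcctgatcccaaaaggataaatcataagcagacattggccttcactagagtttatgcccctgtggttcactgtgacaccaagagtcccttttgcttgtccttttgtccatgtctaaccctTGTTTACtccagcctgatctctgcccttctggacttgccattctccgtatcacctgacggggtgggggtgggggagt
The motifs were searched on both strands in the 250 bases before the start. TATAAA, the letters of a TATA box, was found in 12.4% of 32851 promoters and in those of Apoa2, Apoa5 and Apob. In the Apoa2 and Apoa5 entries shown it lay 212 to 207 and 31 to 26 bases before the RefSeq start. In Apob it lay 60 to 55 bases before it. TGTTTAC, a FOXA motif, was found in 3.17% of promoters and in those of Apoa2 and Apoh. The HNF4A letters CAAAGTCCA (0.384% of promoters) were in none of the 8 genes with an entry, while CAAAGTNCA, a relaxed form added after the sequences were seen, was in 1.19% of promoters and in that of Apoa4, 182 to 174 bases before the RefSeq start. AGGTCA, a nuclear receptor motif (14.0%), was in those of Apoa2, in a second entry that is not shown, and Apoh. TTGCNNAA, a C/EBP motif (9.56%), was in those of Apoa2, in the same second entry, and Apob. TGACGT, the shorter CRE motif (6.47%), was in that of Mttp. TGACGTCA (CRE, 1.55%) and TCACNCCAC (a sterol response motif, 1.05%) were in none, and the Apoa1 and Apom entries held none of these motifs. TGACGT lies within TGACGTCA, and CAAAGTCCA is 1 of the forms of CAAAGTNCA. A match here describes letters only. Apoc3 and Tm6sf2 have no entry in the table.

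Apoa4 encodes apolipoprotein A-IV of chylomicrons, VLDL and HDL. Its level ran from 12.7 to 22.7 CPM in chow, with a median of 16.5, and from 14.7 to 752 CPM in HFD, with a median of 53.0. HFD 1 (14.7 CPM) and HFD 2 (17.6 CPM) lay within the chow range and the other 8 HFD libraries lay above every chow library. Of those 8, 6 libraries held 43.1 to 72.0 CPM, HFD 10 held 192 CPM and HFD 6 held 752 CPM. The fitted log2 change was 2.94 ± 0.579 (SE, n = 10 per diet, 95% interval 1.73 to 4.14, adjusted p = 0.000944, edgeR). The change was called in each of the 20 refits that left out 1 library, with adjusted p between 0.000299 and 0.00241 and log2 changes between 1.85, without HFD 6, and 3.08. Without both HFD 6 and HFD 10, an alternative chosen after seeing the data, it was 1.40 (adjusted p = 0.000191, edgeR; 2.40e-09 to 0.0216 over the 16 other settings). Without HFD 1, HFD 2 and HFD 6 it was 2.14 (adjusted p = 3.68e-06, edgeR). By share of nuclear protein-coding counts 9 of 10 HFD libraries lay above all chow libraries, HFD 2 included. By share of the library total 8 lay above and 2 below. On the TMM scale the rise was present in 8 HFD libraries, and its size depended on HFD 6 and HFD 10.

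Apoa1 encodes apolipoprotein A-I, the main protein of HDL, and lies 12.1 kb from Apoa4 on the same strand. Its level ran from 6134 to 12474 CPM in chow, with a median of 7410, and from 1282 to 8383 CPM in HFD, with a median of 5230. The groups overlapped, and 6 of 10 HFD libraries lay below all chow libraries. By share of the library total 3 of 10 lay below. The log2 change was -0.68 ± 0.292 (SE; 95% interval -1.29 to -0.08; adjusted p = 0.103, edgeR), which did not pass the test; without HFD 1 and HFD 2 it was -0.45 (adjusted p = 0.180) and without HFD 6 as well -0.32 (adjusted p = 0.116). The lowest level was in HFD 6, the library with the highest Apoa4.

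Apoc3, between them on the opposite strand, encodes apolipoprotein C-III, an inhibitor of lipoprotein lipase and of remnant uptake. It ran from 718 to 1437 CPM in chow (median 947) and from 206 to 992 CPM in HFD (median 720). Of the 10 HFD libraries 5 lay below all chow libraries and 5 within their range. By share of the library total, or of nuclear protein-coding counts, 3 lay below. The log2 change of -0.59 did not pass (95% interval -1.07 to -0.10, adjusted p = 0.0819, edgeR). It was -0.39 without HFD 1 and HFD 2 (adjusted p = 0.176) and -0.27 without HFD 6 as well (adjusted p = 0.120). Apoa5 encodes apolipoprotein A-V, a liver protein of low plasma level that promotes triglyceride clearance. It ran from 356 to 605 CPM in chow (median 468) and from 94.1 to 473 CPM in HFD (median 299). Of the HFD libraries 8 lay below all chow libraries, whereas HFD 6 (473 CPM) and HFD 7 (458 CPM) were near the chow median. Apoa5 fell by 0.68 on the log2 scale (SE 0.239, 95% interval -1.17 to -0.18, adjusted p = 0.0490, edgeR). That call is at the threshold: 3 of the 20 refits without 1 library kept it (adjusted p 0.0207 to 0.0861), and none of the 10 that left out a chow library did. Without HFD 1 and HFD 2 it was called, at -0.42 (adjusted p = 0.0315), and without HFD 6 as well, at -0.52 (adjusted p = 0.00412).

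**Figure D1:**
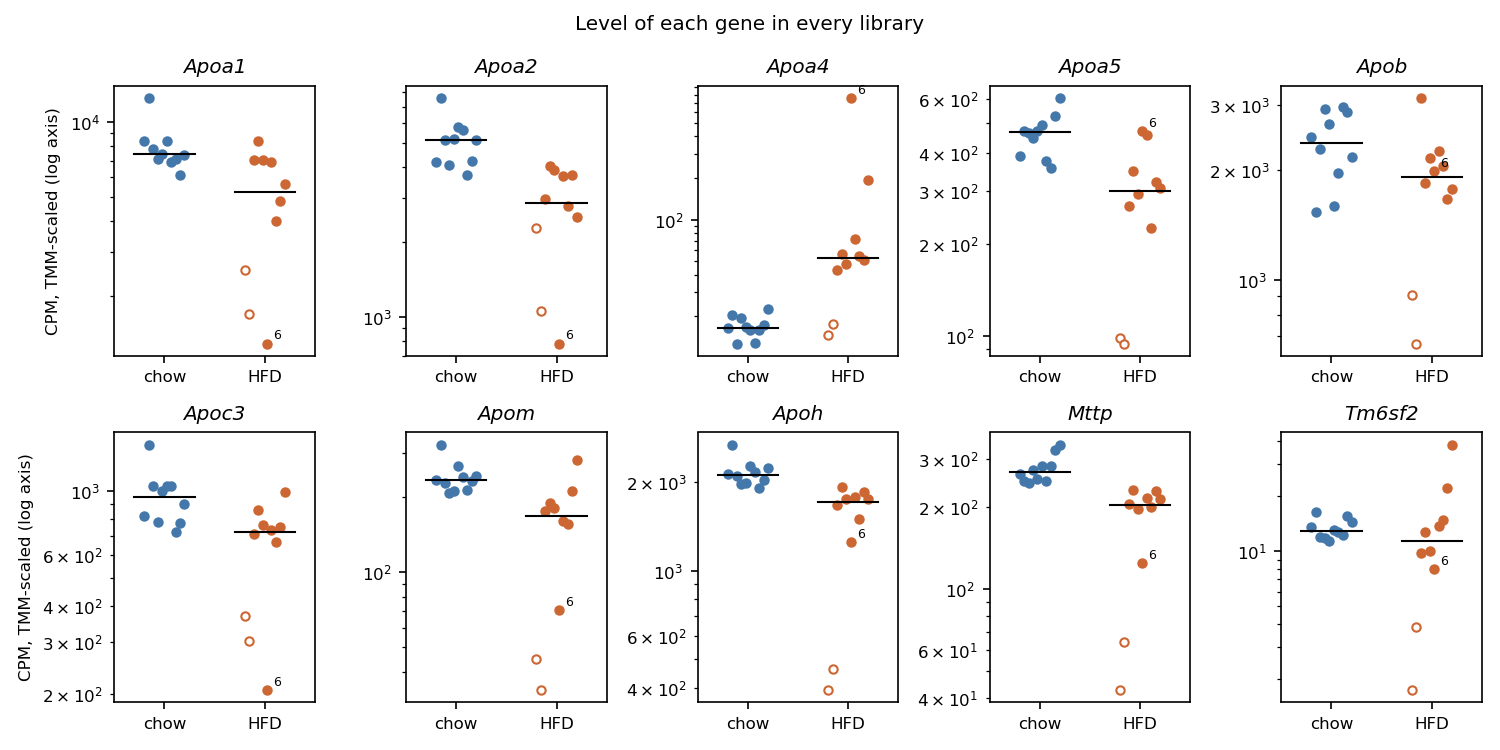
CPM (TMM-scaled, log axis) of the 10 genes in each of the 10 chow and 10 HFD libraries, with 1 point per library in replicate order and a line at the group median; open points are HFD 1 and HFD 2 and the numeral marks HFD 6. Apoa4 exceeded all chow libraries in 8 HFD libraries, Mttp lay below every chow library in all 10 on this scale, and HFD 6 was lowest for Apoa1, Apoa2 and Apoc3.

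Counts within a library give the relation of the cluster genes without any library scale. Apoa4 counts were 0.163% to 0.306% of Apoa1 counts in chow and 0.587% to 58.7% in HFD, with medians of 0.209% and 1.05%. All 10 HFD libraries lay above all chow libraries, HFD 1 (0.587%) and HFD 2 (1.05%) included, so the groups did not overlap on this measure although they did on CPM. In HFD 1 and HFD 2 the log2 CPM against the chow mean was -0.21 and 0.05 for Apoa4 and -1.64 and -2.23 for Apoa1. On that scale the high ratio there came with low Apoa1 and not with raised Apoa4. By share of nuclear protein-coding counts, Apoa4 in HFD 2 did lie above all chow libraries. In HFD 6 both parts of the ratio moved, with Apoa4 at 5.46 and Apoa1 at -2.62. The log2 ratio was -8.85 ± 0.33 (SD, n = 10) in chow and -6.07 ± 2.01 in HFD, a difference of 2.78 (two-sided permutation test, p = 3e-05, adjusted p = 0.00018 over 6 ratios). In refits without 1 library the difference stayed between 2.19 and 2.93, and without HFD 6 and HFD 10 it was 1.97 (adjusted p = 0.000137, exact permutation test; 0.000065 to 0.0117 over the alternatives). Apoa5 against Apoa1 differed by 0.06 (adjusted p = 0.935, permutation test) and Apoc3 against Apoa1 by 0.18 (adjusted p = 0.303, permutation test), and neither passed. In HFD 6 alone Apoa5 counts were 36.9% of Apoa1 counts, against 3.78% to 8.62% in chow.

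**Figure D2:**
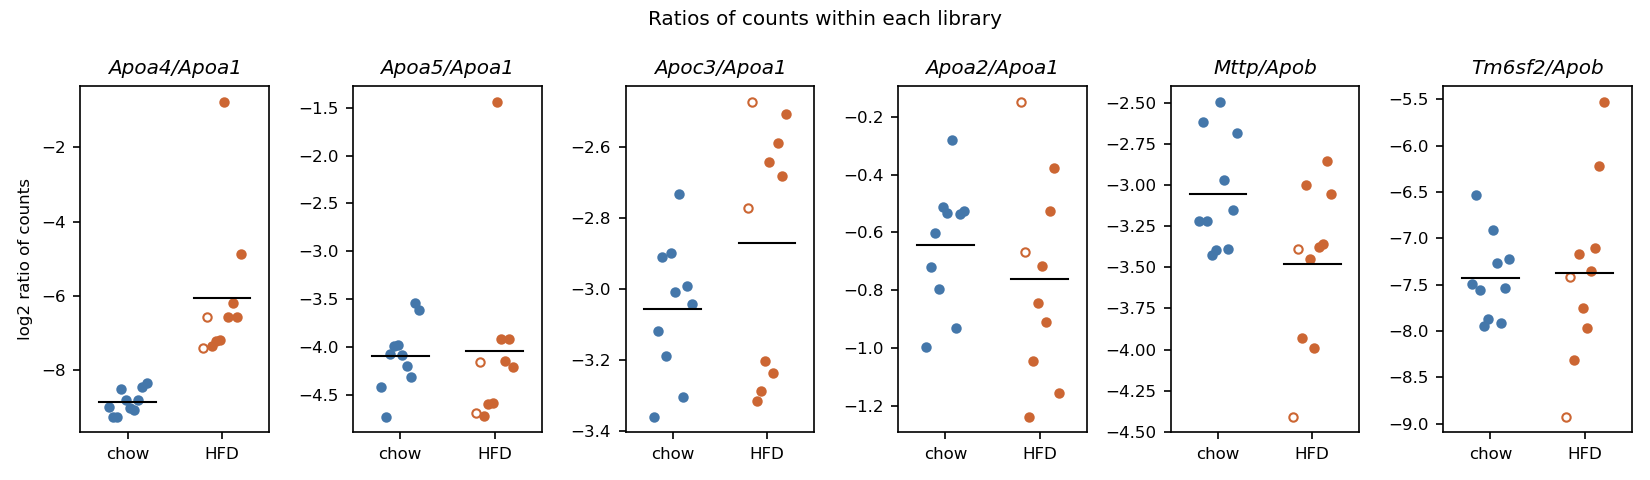
Log2 ratio of counts within each library for 6 pairs of genes, 1 point per library (10 chow, 10 HFD), with a line at the group mean and open points for HFD 1 and HFD 2; each panel has its own axis. In the Apoa4/Apoa1 panel all 10 HFD libraries lie above all chow libraries, and in the other 5 panels the diets overlap.

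Of 10 neighbours of the cluster, 0 were called in edgeR over all libraries, against 20.0% of all genes tested, and the median log2 change was -0.07. Sik3, a kinase gene that lies next to Apoa1, changed by -0.19 (adjusted p = 0.561), and Zpr1, which begins 44.5 kb after the start of Apoa1, by 0.12 (adjusted p = 0.606). In HFD 6 and HFD 10, the libraries with the highest Apoa4, 4 of the neighbours lay above every chow library. Sik3 was 70.0 CPM in HFD 6 and 47.1 CPM in HFD 10 against at most 43.2 CPM in chow, and Pafah1b2 was 50.5 and 33.8 CPM against at most 27.2 CPM. Sidt2 was 137 and 119 CPM against at most 106 CPM, and Zpr1 was 49.1 and 41.1 CPM against at most 40.6 CPM. Sik3 and Sidt2 lay above chow in these libraries only. Zpr1 was highest in HFD 2 (65.3 CPM), where Apoa4 was within the chow range. Pafah1b2 also lay above chow in HFD 3 (28.0 CPM), HFD 8 (29.5 CPM) and HFD 9 (27.4 CPM). The share of all genes tested above chow in HFD 6 and HFD 10 is not given, so this count is no result about the neighbours. Without HFD 1 and HFD 2, 1 neighbour was called, Pafah1b2, higher by 0.38 (adjusted p = 0.0215, edgeR). Antisense gene models overlap Apoa4 and Apoa5, and the use of strand in counting is not known here; Gm10680 and Gm47544 held 0 counts, and Gm47528 held 1 count in chow and 22 in HFD, so few reads were assigned to these models.

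**Figure D3:**
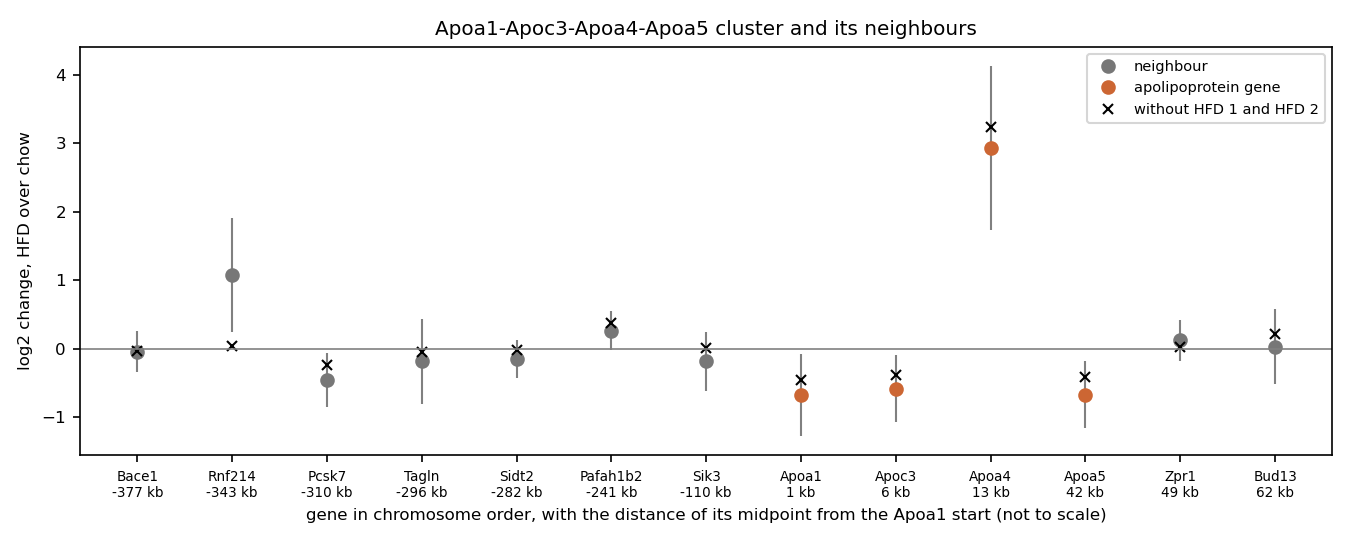
Log2 change between the diets (points, 95% intervals, edgeR, n = 10 per diet) for the 4 apolipoprotein genes and 9 neighbours in chromosome order, with crosses for the fit without HFD 1 and HFD 2 and the distance of each gene's midpoint from the Apoa1 start in kb. Apoa4 stands at 2.94, between Apoc3 at -0.59 and Apoa5 at -0.68, and Rnf214 moves from 1.07 to 0.04 without HFD 1 and HFD 2.

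The intestine makes apolipoprotein A-IV, so intestinal markers were read beside Apoa4. Of 9 enterocyte markers, Cdx1, Cdx2, Sis, Rbp2, Krt20 and Muc2 had 0 counts in all 20 libraries. The summed level of the list was 32.9 to 63.8 CPM in chow and 18.5 to 82.7 CPM in HFD, nearly all of it from Fabp2. Fabp2, a fatty acid binding protein gene, was 18.6 CPM in HFD 6 and 17.8 CPM in HFD 10, the libraries with the highest Apoa4, against 31.3 to 62.8 CPM in chow. Kupffer cell and macrophage markers moved with diet, as 7 of 9 were called higher and their summed level was 314 to 622 CPM in chow and 943 to 2194 CPM in HFD. Over all genes tested 13.0% were called higher. Neutrophil markers summed to 2.25 to 3.14 CPM in chow and 14.5 to 315 CPM in HFD, highest in HFD 10. Of 5 stellate cell markers 3 were called higher (4 without HFD 1 and HFD 2), with a median log2 change of 0.92, and their summed level was 69.7 to 179 CPM in chow and 94.2 to 302 CPM in HFD. The part of these cells in the levels of the 10 genes was not tested.

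Genes that respond to fasting were read for the same reason, since hepatic Apoa4 is known to rise in fasting in mice. Of 16 such genes 3 were called higher (Igfbp1, Lepr and Cyp4a14) and 1 lower (Creb3l3), with a median log2 change of 0.46. Over all genes tested 13.0% were called higher and 7.05% lower, so these counts are near the background and are no result about the list. Igfbp1, an insulin-repressed gene for a binding protein of insulin-like growth factors, was 3.26 to 29.2 CPM in chow and 6.63 to 2478 CPM in HFD. Its 2 highest libraries were HFD 6 (2478 CPM) and HFD 10 (384 CPM), the same 2 as for Apoa4, and HFD 1 and HFD 2 were within the chow range for both genes. Lepr, the leptin receptor gene, was 240 CPM in HFD 6 against 0.561 to 2.10 CPM in chow. Pck1, a gluconeogenic gene, lay within the chow range in 10 of 10 HFD libraries. Creb3l3, a liver transcription factor gene whose product is known to act on Apoa4 in mice, was called lower (log2 change -0.56, adjusted p = 0.0450, edgeR). The labels do not give the feeding state at collection, and its part in the Apoa4 levels was not tested.

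Among the HDL apolipoproteins outside the cluster, Apoa2 fell. Apoa2 (chr1:171225054-171226379, plus strand) encodes apolipoprotein A-II. It ran from 3717 to 7576 CPM in chow (median 5138) and from 782 to 4064 CPM in HFD (median 2883). Of the HFD libraries 8 lay below all chow libraries, and the other 2 at the lower end of the chow range. As a share of nuclear protein-coding counts 6 lay below, and as a share of the library total 4. Apoa2 fell by 0.87 on the log2 scale (SE 0.259, 95% interval -1.41 to -0.33, adjusted p = 0.0210, edgeR), in all 20 refits without 1 library (adjusted p 0.0146 to 0.0432), without HFD 1 and HFD 2 by 0.70 (adjusted p = 0.0297), and without HFD 6 as well by 0.57 (adjusted p = 0.00442). Scaled by library totals alone it was -0.84 and not called (adjusted p = 0.656, against 0.00424 to 0.656 over the 16 other settings). Relative to Apoa1 it did not move past the spread (log2 ratio difference -0.12, adjusted p = 0.550, permutation test).

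Apom (chr17:35128997-35132050, minus strand) encodes apolipoprotein M, the carrier of sphingosine 1-phosphate in HDL. It ran from 208 to 325 CPM in chow (median 234) and from 33.7 to 282 CPM in HFD (median 169), with 8 HFD libraries below all chow libraries and HFD 9 and HFD 10 within the chow range. By share of nuclear protein-coding counts the number below was again 8, and by share of the library total it was 3. The log2 change of -0.67 did not pass (95% interval -1.25 to -0.09, adjusted p = 0.0938, edgeR; 1 of 20 refits called it, that without HFD 10). It was -0.39 without HFD 1 and HFD 2 (adjusted p = 0.0999) and -0.29 without HFD 6 as well (adjusted p = 0.0616). Apoh (chr11:108343354-108414396, plus strand) encodes beta-2-glycoprotein I, a plasma protein that binds phospholipid. It ran from 1905 to 2671 CPM in chow (median 2112) and from 393 to 1922 CPM in HFD (median 1703). Of the HFD libraries 9 lay below all chow libraries and HFD 4, at 1922 CPM, just above the lowest chow library. The number below was 6 by share of nuclear protein-coding counts and 3 by share of the library total. The log2 change was -0.58 with all libraries (adjusted p = 0.0932, edgeR) and -0.32 without HFD 1 and HFD 2, where it passed (95% interval -0.53 to -0.10, adjusted p = 0.0261), as it did without HFD 6 as well (-0.28, adjusted p = 0.0119).

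For the genes of VLDL assembly, Mttp moved and Apob and Tm6sf2 did not pass the test. Mttp (chr3:138089854-138144968, minus strand) encodes the large subunit of the microsomal triglyceride transfer protein. It ran from 244 to 338 CPM in chow (median 268) and from 42.7 to 230 CPM in HFD (median 203). The groups did not overlap, with all 10 HFD libraries below all chow libraries, which held for 2.70% of the genes tested in this direction and for 2.39% in the other. That count rests on the TMM scale: as a share of the library total, or of nuclear protein-coding counts, 4 of 10 HFD libraries lay below all chow libraries and 6 within their range. Mttp fell by 0.68 on the log2 scale (SE 0.235, 95% interval -1.16 to -0.19, adjusted p = 0.0449, edgeR). The call was kept in 7 of 20 refits without 1 library, none of them a refit without a chow library (adjusted p 0.0335 to 0.0766). Without HFD 1 and HFD 2 the change was -0.42 (SE 0.109, adjusted p = 0.00741), and without HFD 1, HFD 2 and HFD 6 it was -0.35 (adjusted p = 0.00109; 0.00109 to 0.902 over the 16 other settings).

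Apob (chr12:7977648-8016835, plus strand) encodes the structural protein of VLDL. It ran from 1529 to 2966 CPM in chow (median 2361) and from 669 to 3132 CPM in HFD (median 1911). Only HFD 1 and HFD 2 lay below all chow libraries, and HFD 3 lay above them. The log2 change was -0.35 (95% interval -0.82 to 0.12, adjusted p = 0.301, edgeR) and -0.12 without HFD 1 and HFD 2 (95% interval -0.44 to 0.20, adjusted p = 0.602), and -0.12 without HFD 6 as well (adjusted p = 0.573); its sign turned to 0.05 in that fit when library totals alone set the scale. Tm6sf2 (chr8:70072924-70080066, plus strand) encodes a membrane protein of the endoplasmic reticulum and its intermediate with the Golgi. It ran from 11.4 to 16.4 CPM in chow (median 12.9) and from 1.73 to 38.3 CPM in HFD (median 11.4). HFD 9 (22.3 CPM) and HFD 10 (38.3 CPM) lay above all chow libraries and 5 HFD libraries lay below them, so the HFD spread ran to both sides. The log2 change was 0.04 (95% interval -0.62 to 0.71, adjusted p = 0.942, edgeR). Leaving out HFD 1 and HFD 2 gave 0.32 (adjusted p = 0.329) and leaving out HFD 6 as well gave 0.41 (adjusted p = 0.168). Leaving out HFD 6 and HFD 10 gave -0.22 (adjusted p = 0.599), so its sign depended on the libraries kept.

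Mttp counts were 9.32% to 17.8% of Apob counts in chow and 4.71% to 13.8% in HFD, a log2 difference of -0.42 (permutation p = 0.0372, adjusted p = 0.112 over 6 ratios), with 4 HFD libraries below all chow libraries. Tm6sf2 against Apob differed by 0.05 (adjusted p = 0.935, permutation test). Neither ratio passed the test.

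**Figure D4:**
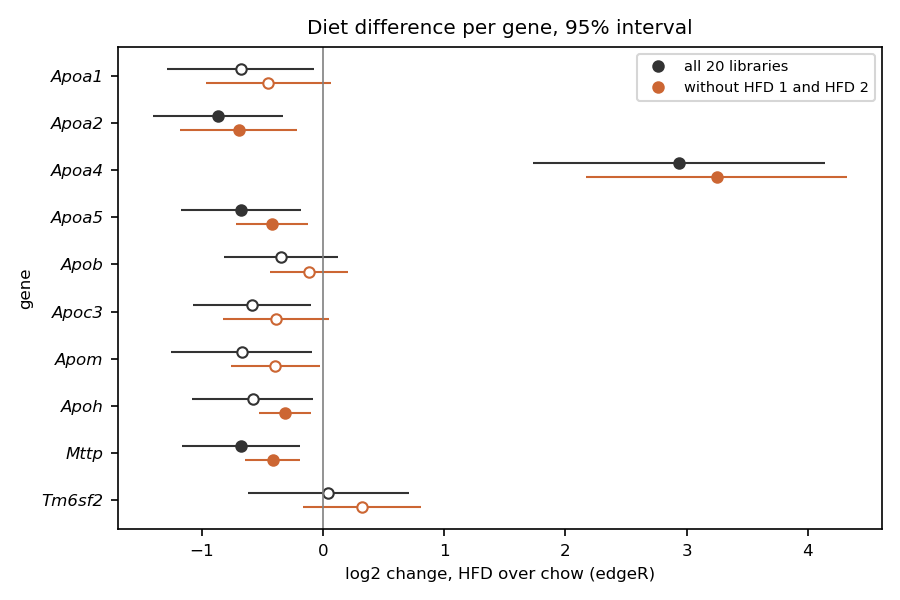
Log2 change between the diets for each gene with its 95% interval (edgeR), for all 20 libraries and without HFD 1 and HFD 2; filled points passed an adjusted p of 0.05 and open points did not. Apoa4 is the one gene to the right of 0 with an interval that excludes it, and the intervals narrow for most other genes without the 2 libraries.

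Gene by gene, HFD 6 differed from the other HFD libraries. Against the chow mean its log2 level was -2.62 for Apoa1, -2.70 for Apoa2, -2.21 for Apoc3 and -1.77 for Apom. In the same library it was 5.46 for Apoa4, 0.04 for Apoa5 and -0.24 for Apob. The other 3 genes lay between these, also below every chow library, at -1.15 for Mttp, -0.78 for Apoh and -0.75 for Tm6sf2. HFD 6 therefore lay below the chow range in 7 of the 10 genes, within it for Apoa5 and Apob and above it for Apoa4. The share of all genes tested below the chow range in HFD 6 is not given. That count therefore describes the library and is no result about the 10 genes. In HFD 1 and HFD 2, by contrast, 9 of the 10 genes were low, from -1.15 to -2.95, and Apoa4 was at -0.21 and 0.05. In the other 7 HFD libraries the 9 genes besides Apoa4 lay between -1.02 and 1.52. The 10 genes together made up 2.12% to 2.98% of nuclear protein-coding counts in chow, 1.06% in HFD 6, 1.22% and 0.949% in HFD 1 and HFD 2, and 1.53% to 2.43% in the other 7 HFD libraries.

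**Figure D5:**
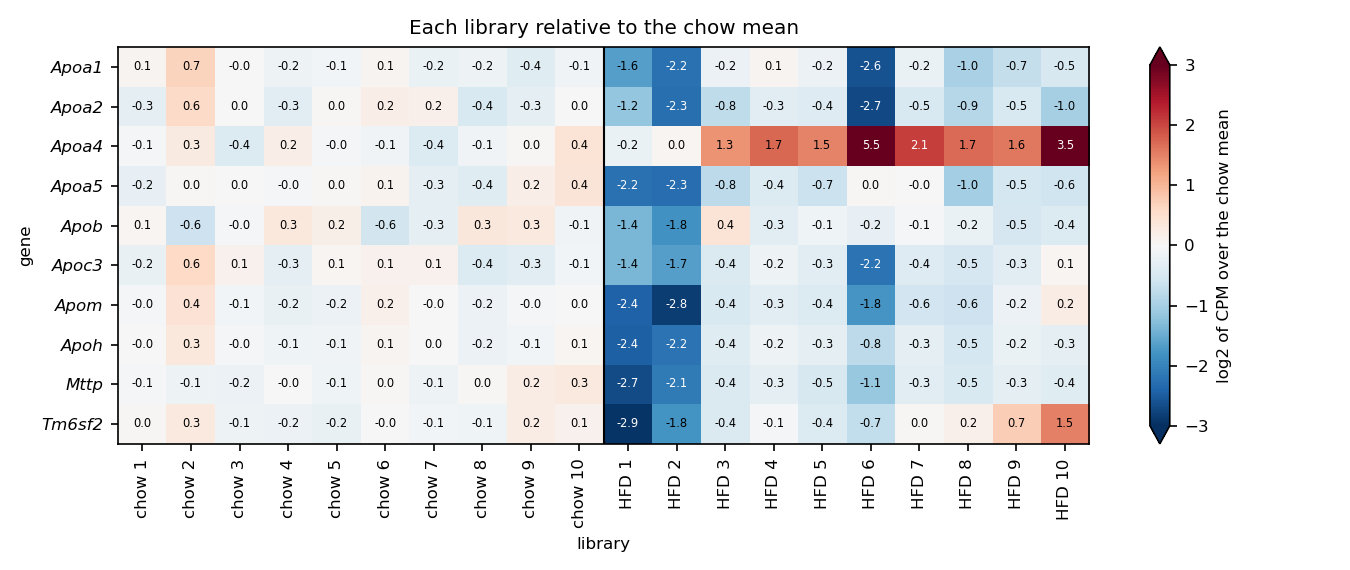
Log2 of CPM over the chow mean for the 10 genes (rows) in the 20 libraries (columns), with each value printed and the colour scale ending at -3 and 3. HFD 1 and HFD 2 are low in 9 genes, and HFD 6 holds the lowest Apoa1 and Apoa2 (-2.62 and -2.70) beside the highest Apoa4 (5.46).

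Transcript length moved with part of this pattern. The length implied by the deposited FPKM was 537 bases for Apoa2, 1013 for Apom, 1014 for Apoc3, 1236 for Apoa1, 1594 for Apoh, 1815 for Apoa4, 1901 for Tm6sf2, 2522 for Apoa5, 6206 for Mttp and 13934 for Apob. In HFD 6 the 154 other protein-coding genes under 1000 bases had a median log2 level of -1.06 against the chow mean, and the 1559 genes over 8000 bases one of 0.29. In chow 2 the medians were 0.54 and -0.34, the opposite order, and chow 2 held the highest Apoa1, Apoa2, Apoc3, Apom and Apoh and the lowest Apob of the chow libraries. The short-gene median was below 0 in all 10 HFD libraries, from -1.06 to -0.08, against -0.24 to 0.54 in chow, and Apoa2 is the shortest of the 10. The long-gene median was also below 0 in 8 of the 10 HFD libraries, and the long-minus-short difference lay outside the chow range of -0.88 to 0.41 in HFD 3 (0.55) and HFD 6 (1.34) only. Mttp, among the longer of the 10, was also low in HFD 6. The part of length in these levels was not tested.

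Within the chow libraries the genes varied together in 2 directions. Of 45 pairs, 8 passed both a Pearson and a Spearman permutation test after adjustment over the 45 (n = 10), 4 positive and 4 negative, and all 4 negative pairs held Apob. Apob against Apoh gave r = -0.89 (adjusted p = 0.000675, permutation test) and rho = -0.96 (adjusted p = 0.00225), and r = -0.87 without the 2 libraries farthest from the median of Apob. Apob against Apoa2 gave r = -0.90 (adjusted p = 0.00171, permutation test) and rho = -0.90 (adjusted p = 0.00945), and r = -0.83 without 2 libraries. Apoa2 against Apoc3 gave r = 0.98 (adjusted p = 0.0009, permutation test) and rho = 0.89 (adjusted p = 0.00981), and r = 0.94 without 2 libraries. The libraries share a scale and differ in the level of long against short genes, and Apob is the longest of the 10 genes. Chow 2 and chow 6, with the lowest Apob (1529 and 1588 CPM), had a long-minus-short log2 difference of -0.88 and -0.21. Chow 8, with the highest Apob (2966 CPM), had one of 0.41. The part of length or of the shared scale in these correlations was not tested. In HFD the libraries fall into HFD 1 and HFD 2 and the rest, so no pooled r is given; over the other 8 libraries 0 of 45 pairs passed both tests after adjustment, and 2 passed by Pearson r.

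Per length, Apoa2 and Apoa1 were the most abundant of the 10 transcripts in chow. The mean FPKM was 11131 ± 2344 (SD, n = 10) for Apoa2, 7538 ± 1494 for Apoa1, 1585 ± 170 for Apoh, 1108 ± 235 for Apoc3, 279 ± 34.2 for Apom, 215 ± 34.0 for Apoa5 and 199 ± 50.7 for Apob. Apoa5 and Apob differed by less than the larger SD, and the other neighbours in this order by more. At the low end Mttp had 52.3 ± 6.23 and Tm6sf2 8.22 ± 0.601 FPKM, and Apoa4 lay between them at 11.05 ± 2.07 FPKM. In the 8 HFD libraries other than HFD 1 and HFD 2, Apoa4 came to 120 ± 196 FPKM, from 33.8 to 600, which placed its mean above that of Mttp (43.7 ± 7.13), though the 2 differed by less than the larger SD. FPKM is divided by the column total, which includes mitochondrial and rRNA counts, and so understates nuclear genes in chow 9, HFD 1 and HFD 2.

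Other apolipoprotein and plasma lipoprotein genes moved both ways. Of 16 tested, 4 were called higher and 2 lower, with a median log2 change of -0.16, against 13.0% higher and 7.05% lower over all genes tested. Apoc4, of the Apoe cluster, lay below all chow libraries in 10 of 10 and fell by 0.84 (adjusted p = 0.000494, edgeR), and Apoe was the other gene called lower (log2 change -3.66, adjusted p = 0.0155). On the TMM scale used for that count, 2.70% of all genes tested lay below all chow libraries in 10 of 10. The genes called higher were Saa1, Saa2, Apol10b and Pltp. Saa2, an acute-phase apolipoprotein of HDL, was 10.3 to 37.9 CPM in chow and 103 to 20436 CPM in HFD (log2 change 7.08, adjusted p = 1.44e-05, edgeR). Saa1 and Saa2 are near-identical copies, so the split of reads between them is uncertain.

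The list of genes for assembly and export of apoB lipoproteins leaned lower. Of 35 tested, 8 were called lower and 1 higher, with a median log2 change of -0.32. Over all genes tested 7.05% were called lower and 13.0% higher. Without HFD 1 and HFD 2 the counts were again 8 and 1 with a median of -0.10, against 10.4% lower and 17.9% higher over all genes tested. Ces1d, a microsomal lipase that supplies lipid to VLDL, fell by 1.32 (adjusted p = 0.00112, edgeR), from a median of 520 CPM to 243 CPM, below all chow libraries in 10 of 10. Smlr1 fell by 0.70 (adjusted p = 0.00440). Sort1, a sorting receptor of apolipoprotein B, and Cideb, a protein that acts in VLDL lipidation, lay below all chow libraries in 10 of 10 and fell by 0.89 and 0.70 (adjusted p = 0.0364 and 0.0428, edgeR). These 10 of 10 counts are on the TMM scale, where 2.70% of all genes tested lay below all chow libraries in the same way. Dgat1, which makes triglyceride, fell by 0.41 (adjusted p = 0.0277), and Sar1b, a GTPase of COPII vesicles, by 0.64 (adjusted p = 0.0284). Aadac (-0.76) and A1cf (-0.64) were also called lower, but not without HFD 1 and HFD 2 (adjusted p = 0.105 and 0.101). Apobec1, the enzyme that edits the Apob transcript, was the gene called higher: it ran from 10.7 to 15.6 CPM in chow and from 10.9 to 77.3 CPM in HFD, above all chow libraries in 9 of 10 (log2 change 1.30, adjusted p = 0.00149, edgeR, and 0.79 without HFD 1 and HFD 2). Apobec1 is expressed in myeloid cells as well as hepatocytes in mice, and the macrophage markers given above moved with it; their part in it was not tested.

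Genes that handle lipoproteins after secretion split. Of 21 tested, 5 were called higher and 7 lower, with a median log2 change of -0.06, against 13.0% higher and 7.05% lower over all genes tested. Without HFD 1 and HFD 2, 6 were called higher and 7 lower, with a median of -0.25, against 17.9% and 10.4%. The genes named next are from those called higher, and those called lower are not named here. Lpl, lipoprotein lipase, had a median of 17.4 CPM in chow and 136 CPM in HFD, above all chow libraries in 10 of 10 (log2 change 3.28, adjusted p = 1.32e-06, edgeR). Abcg1, a sterol exporter, lay above all chow libraries in 10 of 10 (log2 change 2.29, adjusted p = 1.38e-07). Both are also expressed by macrophages. A position above all chow libraries in 10 of 10, on the TMM scale, held for 2.39% of all genes tested.

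Of 29 regulators of these genes, 2 were called higher and 4 lower, with a median log2 change of -0.23; 20.0% of all genes tested were called, so this share is near the background and is no result about the list. Hnf4a, the nuclear receptor central to hepatic apolipoprotein expression, was 447 to 560 CPM in chow and 264 to 623 CPM in HFD, and its log2 change of -0.23 did not pass (adjusted p = 0.233, edgeR). Srebf2 fell by 0.70 (adjusted p = 0.00281) and Nr1d1, a clock repressor, by 0.73 (adjusted p = 0.0222), and Creb3l3 and Nr1h4 were also called lower. Cebpb and Foxo1 were called higher, by 1.37 (adjusted p = 0.00206) and 0.64 (adjusted p = 0.0259). Foxo1, which acts on Mttp and Apoc3 in mice, was above all chow libraries in 4 of 10 HFD libraries.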

How the data were processed

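Liver RNA of 10 chow and 10 HFD libraries was analysed from 2 tables. The authors deposited counts per gene and library, and FPKM values, which for 27216 of 27216 genes with counts were the count over its column total and 1 length per gene (relative tolerance 1e-06). Per the submitters' processing notes, fastp and the build mm10 were used. For the aligner, counter, annotation and strand setting nothing is given in the sources used here. Among 55401 IDs, 55141 matched GENCODE M21, and the 260 unmatched IDs, at most 0.00852% of a library, stayed in the tests. Counts were fitted with edgeR 4.0.16 (R 4.3.3): filterByExpr (minimum count 10, total 15), TMM, a robust quasi-likelihood fit with diet as the only term, two-sided F tests, and Benjamini-Hochberg adjustment over all genes tested. Data were simulated from the mean chow profile with the depth and dispersion of these libraries. There the test recovered 70 of 100 genes changed 2-fold and 98 of 100 changed 4-fold. The changed genes were drawn from those above a minimum expected count. The simulation held neither the mitochondrial excess of HFD 1 and HFD 2 nor the length differences, so recovery may be lower in these data. CPM used TMM-scaled library sizes. Ratios (0.5 added to each count) and correlations (log2 CPM, prior count 2) used permutation tests with 100000 resamples, exact where a diet had fewer than 10. Alternatives were limma 3.58.1 voom, DESeq2 1.42.0, other scalings and filters, the replicate number as a block, and refits without libraries. Same-numbered chow and HFD libraries did not deviate together (correlations -0.11 to 0.13), so the numbers were not taken as pairs. No 2 libraries of a diet agreed within sampling noise. The 10 genes, the gene lists and the tests were chosen with earlier results of these data known. Named genes were the 10 genes, up to 4 genes per list with the smallest p, the cluster neighbours, marker genes beside a result, and a fixed set of fasting and liver genes; of the genes the rule names, part are printed, and Apobec1, Sort1, Cideb, Sar1b, Dgat1, Aadac, A1cf, Apol10b, Pltp, Nr1h4 and Foxo1 were named for being called or after their values were seen where the rule does not reach them. The comparison of long and short genes and the relaxed HNF4A motif were added after seeing the data. Some of the genes and motifs examined are not reported here. Figures were made with matplotlib 3.10.9.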

Additional observations from a re-analysis of the deposited data

Results flagged for a closer look

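Of 32 groups of 10 libraries looked at, 7 held a library far from the others of its diet, and chance gives such a gap in about 1 in 20 groups. Chow 2 was far above the other chow libraries for 4 genes: Apoa1 (12474 CPM), Apoc3 (1437 CPM), Apom (325 CPM) and Apoh (2671 CPM). Chow 2 was also the library with the highest level of short genes among the chow libraries (median log2 level 0.54). HFD 6 was far above the other HFD libraries for Apoa4 (752 CPM) and for the log2 ratios Apoa4/Apoa1 (-0.77) and Apoa5/Apoa1 (-1.44). In HFD 6 the short genes had a median log2 level of -1.06, and Apoe was at 10124 CPM against at most 819 CPM in the other HFD libraries. The part of these in the values was not tested.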

How the results depend on the processing

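Over 36 settings, Apoa4 stayed the 1 gene called higher in each of them. The 3 genes called lower (Apoa2, Apoa5 and Mttp) became 0 with library totals alone, 1 with upper-quartile scaling, 1 without a filter, 7 with limma voom, 6 with voom plus quality weights per library, 5 without HFD 1, HFD 2, HFD 6 and HFD 10, and 0 without HFD 1 and HFD 2 with library totals alone; the last 2 were chosen after seeing the data, and the causes were not tested. Refits without 1 library gave 1 to 4 genes lower. No called change reversed: of 360 values of single genes among the 10 under these settings, 300 kept their side of the threshold, 45 lost a call and 15 gained one. The numbers that chow and HFD libraries share do not pair them: with a replicate block 0 genes were called lower (Apoa2 adjusted p = 0.0835, Apoa5 0.0519, Mttp 0.0516, edgeR) and Apoa4 stayed higher by 1.83 (adjusted p = 0.0216), and 1 of 10 HFD libraries correlated best with the chow library of its number. With the block, 913 of all genes were called higher and 661 lower, against 1886 and 1025, and of the 35 genes for assembly and export 4 were called lower in place of 8. Library totals alone gave 507 and 93. Voom with quality weights called 2750 genes lower. Without HFD 1 and HFD 2, totals alone shifted the median of all genes to 0.19 (3664 higher, 564 lower), RLE scaling gave 1720 lower and TMM 1539; without HFD 6 too, 2241 were lower, and without HFD 10 also 1971. Without a filter the median of all genes was 0.13. The Mttp/Apob difference lay between -0.49 and -0.32 in refits without 1 library and passed without HFD 9 alone (-0.49, adjusted p = 0.0481, exact permutation test). The 8 pairs correlated in HFD became 0 without HFD 1 and HFD 2 and 6 without HFD 6. HFD 1 and HFD 2 held few nuclear counts, which limits the precision of every low gene there.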
